A study of Mus musculus with 2 samples.

Results

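The 46 genes described here drive or restrain the cell cycle and DNA replication. They were matched by GENCODE symbol to the gene identifiers of the deposited tables, and all 46 were found among 43346 Ensembl genes. They fall into 11 genes of G1 and of entry into S phase (G1/S), 10 replication genes, 16 genes of G2 and mitosis (G2/M), 4 inhibitors of cyclin-dependent kinases (CDKs), and 5 pocket proteins and repressor E2Fs. The series holds a single group, the hindbrain of healthy embryos of mouse strain B6NCrl at 16.5 days. Male and female embryos were pooled, and the pool of replicate 2 came from 37 embryos, while the labels give no number for replicate 1. There are 2 biological replicates with 1 RNA library each, made from 10 ng of RNA longer than 200 bases, and a bulk pool gives 1 value over all the cells of the dissected tissue. A single group leaves no conditions to set against each other. Since exchanging 2 libraries cannot bring a p below 0.5, values are described without one.

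In a dividing cell, D-type cyclins with Cdk4 and Cdk6, followed by E-type cyclins with Cdk2, phosphorylate the pocket proteins and release E2F factors, which switch on genes of DNA replication. Cdc6 and Cdt1 load the Mcm2 to Mcm7 helicase onto replication origins, and geminin blocks a further loading by binding Cdt1. Cyclin A and cyclin B with Cdk1 then take the cell into mitosis, and the anaphase-promoting complex with its activator Cdc20 ends it. In the late embryonic hindbrain, dividing cells sit mainly in the ventricular zone and, in the cerebellum, in the external granular layer, where Sonic hedgehog maintains the division of granule cell progenitors. Neurons leave the cycle for good, held there in part by CDK inhibitors.

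Replicate 1 held 42467811 expected counts and replicate 2 held 42017008, and the 46 genes held 0.211% and 0.186% of the counts on Ensembl genes. Levels are given in TPM, a share of all transcripts that corrects for transcript length, and errors are SD over n = 2 libraries. Of 9 hindbrain markers 8 reached 1 TPM in both libraries, with En2, at 0.340 and 0.460 TPM, as the exception. None of 7 forebrain markers did, although their summed level was 16.4 TPM in replicate 1 and 0.360 TPM in replicate 2. Skeletal muscle markers summed to 192 TPM in replicate 1 and 3.96 TPM in replicate 2.

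All 46 genes reached 1 TPM in both libraries, against 63.5% of 21474 protein-coding genes. Their median was 22.2 TPM in replicate 1 and 17.9 TPM in replicate 2, beside 19.6 and 18.2 TPM for those protein-coding genes whose mean reached 1 TPM. By class, the median of the 2-library means was 64.3 TPM for the CDK inhibitors, 24.5 TPM for both the replication and the G2/M genes, 16.6 TPM for the G1/S genes, and 5.005 TPM for the pocket proteins and repressor E2Fs. The range within a class was wide, from 2.85 to 577 TPM among the G1/S genes alone. In bulk tissue, fewer dividing cells and less RNA per cell cannot be told apart, so these levels are averages over dividing and non-dividing cells.

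**Figure D1:**
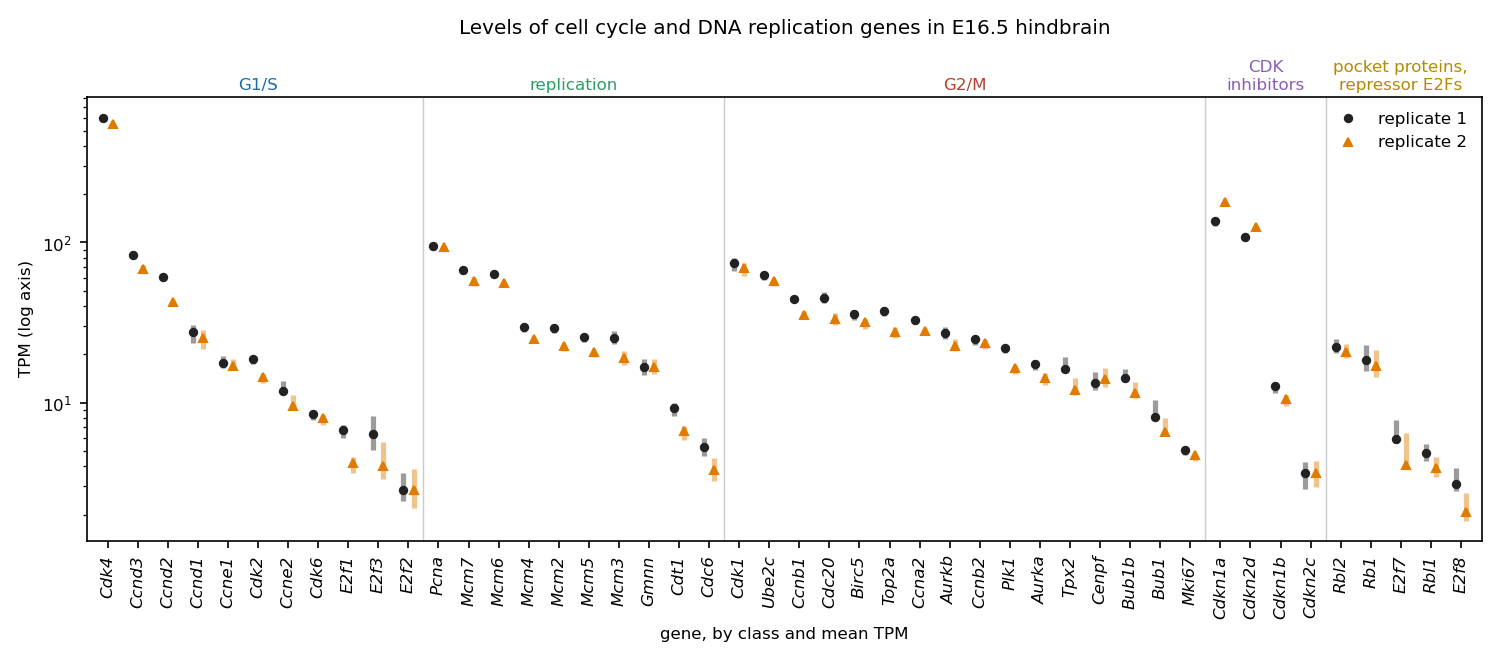
TPM (log axis) of each of the 46 genes in replicate 1 (circles) and replicate 2 (triangles), with bars for the deposited intervals, by class and in order of mean TPM. Cdk4 stands above all others at 600.4 and 553 TPM, Cdkn1a and Cdkn2d follow, and E2f8 is the lowest at 3.12 and 2.08 TPM.

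The promoters of these genes give a description that the class assignment did not use. RefSeq promoter windows on GRCm38.p6, from 250 bases before to 50 bases after the start, were at hand for 37 of the 46 genes and gave 43 windows. Ccna2, Ccnd1, Ccnd2, Ccne2, Aurkb, Gmnn, Mcm4, Rb1 and Tpx2 had no entry. Windows were searched on both strands for the CHR (cell cycle genes homology region, TTTGAA), through which the DREAM and MuvB complexes act on mitotic genes, for an E2F core (TTCGCGC or TTGGCGC), and for the CCAAT box (CCAAT), a site of NF-Y. The CHR was found in 10 of 13 windows of G2/M genes (76.9%), against 1 of 9 windows of replication genes (11.1%) and 17.9% of all 32851 windows in the table. An E2F core was found in 5 of 9 windows of replication genes (55.6%) and 3 of 4 of the pocket protein and repressor class (75%), against 3.89% of all windows. Of the G2/M windows 3 of 13 held it (23.1%), and of the G1/S windows 2 of 11 (18.2%). The windows of E2f1, Ccne1 and Cdc6 held no match to this core, and other forms of the site were not searched. The windows of E2f1 and Cdc6, placed on RefSeq starts, also do not reach the start of the gene in GENCODE. The CHR was in 2 of 11 G1/S windows (18.2%), near its share of all windows. The CHR was also in 2 of 4 windows of the pocket protein and repressor class (50%). The CCAAT box was in 12 of 13 G2/M windows (92.3%) and 7 of 9 replication windows (77.8%), against 37.4% of all windows, so it was common in both classes. In the windows of these genes, 4 E2F matches overlap a CCAAT match. Median GC content was 58% in the G2/M windows and 57.7% in the replication windows, against 52.7% in all windows. None of the 6 windows of the CDK inhibitors held a CHR or an E2F core. A match describes the letters of the window and is not a bound site.

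**Figure D2:**
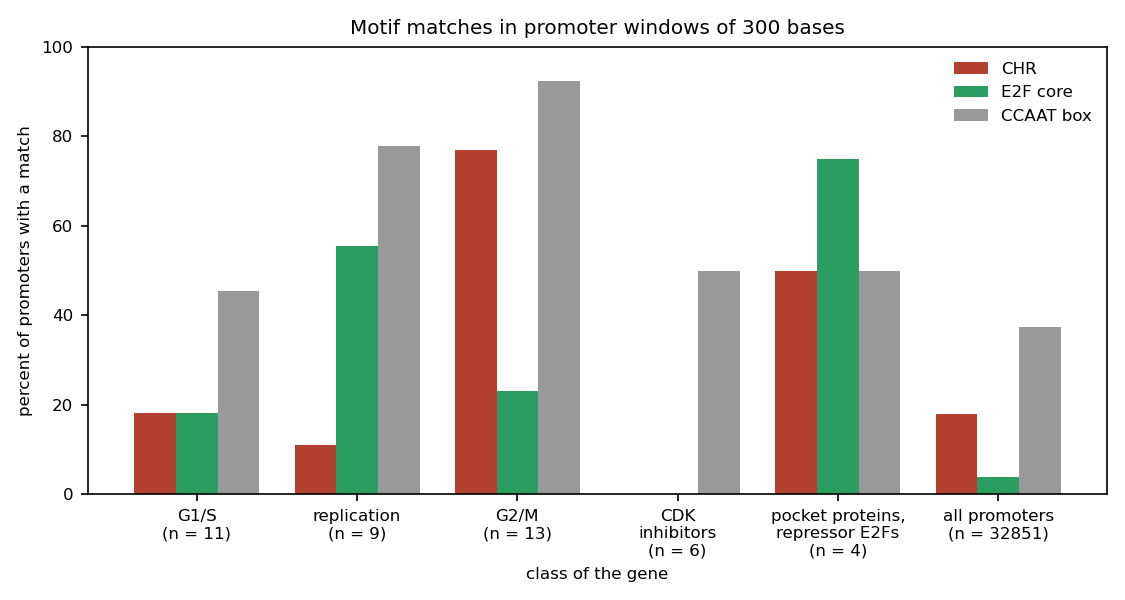
Percent of promoter windows with at least 1 match to the CHR (TTTGAA), the E2F core (TTCGCGC or TTGGCGC) or the CCAAT box on either strand, for each class and for all 32851 windows, with the number of windows below each class. The CHR bar is highest in G2/M genes at 76.9%, and the E2F bars stand at 55.6% in replication genes and 75% in the pocket protein class, against 3.89% in all windows.

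The windows below show such matches close to the start, as the 120 bases that end just before the RefSeq start, 5′ to 3′ on the strand of the gene. Capitals mark CHR and E2F matches on either strand, so the CHR also appears as TTCAAA. They come from Cdk1 (chr10:69352913-69353032, minus strand), Cdc20 (chr4:118437344-118437463, minus strand), Top2a (chr11:99024190-99024309, minus strand) and Ube2c (chr2:164769809-164769928, plus strand) among the G2/M genes, Mcm6 (chr1:128359706-128359825, minus strand) among the replication genes, and E2f8 (chr7:48881597-48881716, minus strand) among the repressors.
Cdk1: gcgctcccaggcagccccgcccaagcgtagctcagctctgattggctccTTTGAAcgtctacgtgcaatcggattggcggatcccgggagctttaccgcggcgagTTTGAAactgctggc
Cdc20: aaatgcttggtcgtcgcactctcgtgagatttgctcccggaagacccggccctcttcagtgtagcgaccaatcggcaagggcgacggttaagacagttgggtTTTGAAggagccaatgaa
Top2a: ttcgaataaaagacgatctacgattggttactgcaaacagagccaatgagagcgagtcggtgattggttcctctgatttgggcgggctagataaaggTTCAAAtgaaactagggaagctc
Ube2c: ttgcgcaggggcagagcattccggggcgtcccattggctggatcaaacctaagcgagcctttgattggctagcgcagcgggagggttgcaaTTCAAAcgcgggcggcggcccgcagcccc
Mcm6: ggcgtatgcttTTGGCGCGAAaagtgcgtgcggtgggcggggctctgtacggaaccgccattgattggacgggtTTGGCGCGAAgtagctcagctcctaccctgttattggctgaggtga
E2f8: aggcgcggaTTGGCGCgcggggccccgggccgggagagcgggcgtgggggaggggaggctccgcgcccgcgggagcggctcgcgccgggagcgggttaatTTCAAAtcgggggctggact
The Cdk1 window holds the CHR at 2 places, and the E2F matches of Mcm6 form 2 runs, in each of which a match on one strand overlaps one on the other. E2f8 holds both kinds. The searched windows reach beyond these bases, and there Cdk1 has 2 E2F matches as well, farther before the start, Top2a has a further CHR and Mcm6 a further E2F match.

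Among the G1/S genes the catalytic subunit Cdk4 dominated. Cdk4 (chromosome 10, 127063534 to 127067920) had 600.4 TPM in replicate 1 and 553 TPM in replicate 2, which placed it above 99.2% of protein-coding genes, while its partner in function Cdk6 had 8.52 and 7.98 TPM. The log2 ratio of Cdk4 over Cdk6 was 6.13 ± 0.017, a 69.9-fold difference, and it was 23.7-fold when protein-coding transcripts alone were counted. A pair is called here when the deposited intervals of its genes do not overlap in either library, and of 38 pairs 30 were called, this one among them.

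The D cyclins, which couple growth signals to the cycle, were led by Ccnd3. It had 83.8 and 68.4 TPM. Ccnd2, a D cyclin of granule cell progenitors, had 60.6 and 42.3 TPM, and Ccnd1 had 27.5 and 25.4 TPM. Ccnd3 thus made up 48.8% and 50.2% of the summed D cyclin level, and the order was the same in both libraries. Ccnd2 was 1.91-fold above Ccnd1 (log2 ratio 0.94 ± 0.29), and Ccnd1 lay 2.86-fold below Ccnd3. With protein-coding transcripts alone these distances became 3.52-fold and 5.18-fold. A Ccnd1 transcript annotated with a retained intron took 43.4% and 47.6% of that gene's TPM. It held only 111 and 115 of the 1535 and 1362 expected counts of Ccnd1.

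The E cyclins and Cdk2, which fire the transition into S phase, were lower and closer together. Ccne1 had 17.7 and 16.9 TPM and Ccne2 11.9 and 9.47 TPM, a 1.63-fold difference that was called. Cdk2 had 18.9 and 14.5 TPM. The activator E2Fs closed the class. E2f1 had 6.75 and 4.19 TPM, E2f3 had 6.33 and 4.05 TPM, and E2f2 had 2.84 and 2.86 TPM. The intervals of E2f3 and E2f1 overlapped in both libraries, and those of E2f1 and E2f2 overlapped in replicate 2, so neither pair was called.

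The replication genes split by level. Pcna, the sliding clamp of the DNA polymerases, was the highest with 95.3 and 93.7 TPM and overlapping intervals. It stood 3.69-fold above Mcm2 (log2 ratio 1.89 ± 0.24).

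The helicase subunits Mcm2 to Mcm7 form a ring with 1 copy of each, and their messages were not level with each other. Mcm7 (chromosome 5, 138164583 to 138172422) had 67.4 and 57.2 TPM and Mcm6 63.7 and 56.1 TPM, and these 2 did not differ by the interval rule. The other four lay between 25.5 and 29.5 TPM in replicate 1 and from 18.9 TPM for Mcm3 up to 25 TPM for Mcm4 in replicate 2. Mcm6 and Mcm7 together thus stood apart from the rest in each library. All 8 comparisons of Mcm6 or Mcm7 with one of the other four were called, with folds from 2.20 for Mcm6 over Mcm4 to 2.83 for Mcm7 over Mcm3. Among the other four only Mcm5 and Mcm4 were called, with Mcm5 1.18-fold lower. Of the 15 pairs within the ring 9 were called.

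The licensing factors were the lowest of the class. Cdc6 had 5.30 and 3.81 TPM and Cdt1 9.30 and 6.62 TPM, and Cdc6 lay 1.75-fold below Cdt1 in a called pair. Geminin (Gmnn), the inhibitor of Cdt1, had 16.6 and 16.8 TPM, 2.13-fold above Cdt1 (log2 ratio 1.09 ± 0.36). The Gmnn message thus exceeded that of Cdt1 in TPM, by 1.79-fold in replicate 1 and 2.53-fold in replicate 2, and protein was not measured. Before the correction for length Gmnn had 355 and 366 expected counts, against 488 and 356 for Cdt1. Their effective lengths are 849 bases for Gmnn and 2090 bases for Cdt1.

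Among the G2/M genes the kinase Cdk1 (chromosome 10, 69335146 to 69352938) was the highest with 74.5 and 69.0 TPM over all transcripts. With protein-coding transcripts alone it had 39.5 and 32.35 TPM, below Ube2c at 62.9 and 57.7 TPM and Ccnb1 at 41.3 and 33.25 TPM. Cdk1 stood 4.34-fold above Cdk2, and 2.17-fold above it with protein-coding transcripts alone. Ube2c, the ubiquitin-conjugating enzyme of the anaphase-promoting complex, had 62.9 and 57.7 TPM. Its exons share 592 bases with those of Tnnc2, a muscle troponin gene on the opposite strand that had 37.6 TPM in replicate 1 and 0.570 TPM in replicate 2. The labels and headers used here do not say whether reads were counted by strand, and the part of Tnnc2 in the Ube2c level was not tested.

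The mitotic cyclins, regulators and structural genes followed in a graded series. Ccnb1 had 44.4 and 35.5 TPM and Ccnb2 24.9 and 23.6 TPM, a called 1.64-fold difference, while Ccna2, the cyclin of S phase and G2, had 32.9 and 28.1 TPM. Cdc20 had 45.2 and 33.2 TPM, 2.04-fold above Plk1, the polo-like kinase, at 22.1 and 16.4 TPM. With protein-coding transcripts alone Cdc20 was 1.65-fold above Plk1. The mitotic cyclin levels thus lay within a factor of 2 of each other in each library.

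The chromosomal passenger genes lay in the same range. Birc5, which encodes survivin, had 36.0 and 31.7 TPM, and its partner kinase Aurkb had 27.1 and 22.5 TPM. Aurkb stood 1.57-fold above the spindle pole kinase Aurka at 17.5 and 14.2 TPM, and 1.26-fold with protein-coding transcripts alone. The spindle checkpoint genes were lower, with Bub1b at 14.2 and 11.5 TPM and Bub1 at 8.15 and 6.56 TPM, a called 1.75-fold difference. The spindle factor Tpx2 had 16.1 and 12.02 TPM and the kinetochore gene Cenpf 13.4 and 14.1 TPM.

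Top2a and Mki67, both widely used as tissue markers of proliferation, were far apart in level. Top2a, the topoisomerase of replicating and condensing chromosomes, had 37.5 and 27.5 TPM, against 5.10 and 4.69 TPM for Mki67, which encodes the Ki-67 antigen and was the lowest G2/M gene. The ratio was 6.57-fold (log2 ratio 2.72 ± 0.23), and 3.80-fold with protein-coding transcripts alone. Before the correction for length the gap was smaller, with 3133 and 2273 expected counts for Top2a against 1277 and 1204 for Mki67, whose effective length is 9976 bases.

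The CDK inhibitors held 2 of the highest and 1 of the lowest levels. Cdkn1a (p21, chromosome 17, 29090976 to 29100727), the inhibitor induced by p53, had 136 TPM in replicate 1 and 179 TPM in replicate 2. Cdkn2d (p19), an Ink4 inhibitor of Cdk4 and Cdk6 that in mice helps to keep neurons out of the cycle, had 109 and 125 TPM. Behind Cdk4 these 2 were the highest of the 46 genes, above every cyclin. Cdkn1b (p27), which acts with Cdkn2d in that role in mice, had 12.7 and 10.5 TPM and lay 13.5-fold below Cdkn1a (log2 ratio of Cdkn1b over Cdkn1a -3.76 ± 0.47). Cdkn2c (p18) had 3.62 TPM in each library, 32.2-fold below Cdkn2d. Cdkn1b also lay below Cdk2, the kinase it binds, by 1.43-fold in a called pair. Levels of messages are compared here, and p27 protein is known to be set by protein turnover.

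Of the pocket proteins, which hold E2F factors in check, Rbl2 (p130) and Rb1 were the most abundant. Rbl2 had 22.3 and 20.8 TPM and Rb1 18.4 and 16.9 TPM, against 4.87 and 3.93 TPM for Rbl1 (p107), itself an E2F target. Rbl2 was 4.93-fold and Rb1 4.02-fold above Rbl1, and both pairs were called. The repressor E2Fs, which shut E2F targets off late in S phase, were among the lowest genes, with E2f7 at 5.90 and 4.11 TPM and E2f8 at 3.12 and 2.08 TPM.

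**Figure D3:**
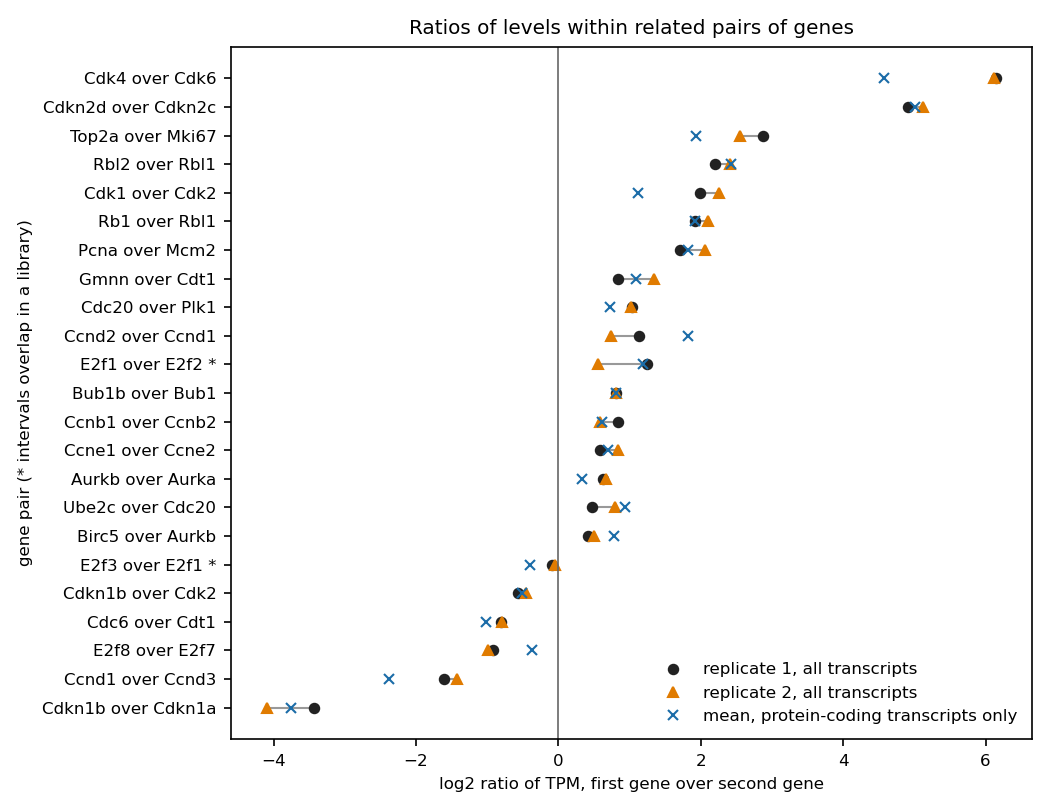
Log2 ratio of TPM within 23 related pairs in replicate 1 (circles) and replicate 2 (triangles), with crosses for the mean of both libraries over protein-coding transcripts alone. Of these 23 pairs 21 were called, and the 2 marked with a star were not. The crosses lie farthest from the circles and triangles for Cdk4 over Cdk6, Cdk1 over Cdk2, Top2a over Mki67, Ccnd2 over Ccnd1 and Ccnd1 over Ccnd3.

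The transcript tables show which messages these levels stand for. In 30 of 46 genes at least 90% of TPM lay in protein-coding transcripts in both libraries. In 45 of 46 the leading transcript was protein-coding. Cdk4 was the exception and the single gene under 50% in both libraries, with 34.7% and 33.1% in protein-coding transcripts. Its leading transcript by TPM, Cdk4-209, carries a retained intron and took 36.1% of the gene's TPM in replicate 1 and 37.8% in replicate 2. Cdk4-209 held 2008 and 1984 of the 12673 and 11636 counts of Cdk4, below the coding Cdk4-201 with 3536 and 2996. Cdk4-208, a target of nonsense-mediated decay, took 17.9% and 17.3% of TPM. The coding part of Cdk4 alone amounted to 208 and 183 TPM, still the highest coding level among the 46 genes. Cdkn1a, with 136 and 179 coding TPM, was close to it in replicate 2. Exons of Cdk4 share 641 bases with Tspan31 on the opposite strand, which had 97.1 and 96.0 TPM.

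In 9 genes under 75% of TPM was protein-coding in both libraries. Cdk1 had 53.1% and 46.9% of its TPM in protein-coding transcripts, with Cdk1-203 and Cdk1-204, both with retained introns, at 23.0% and 23.8% of the gene in replicate 1 and 28.1% and 23.9% in replicate 2. Ccnd1 had 56.6% and 52.4%, Top2a 59.2% and 56.6%, and the 3 pocket protein genes between 47.9% and 62.7%. These are shares of TPM, in which a short transcript weighs more than it does in counts. The coding Top2a-201 held 2856 and 2052 of the 3133 and 2273 counts of Top2a. Rb1-201 held 1178 and 949 of 1246 and 1028 counts, and Rbl1-201 held 322 and 265 of 444 and 357. Among others, Ccnd2, Cdk2, Cdk6, E2f1, Mcm2, Mcm4, Mcm5, Cdt1, Plk1 and Mki67 were wholly coding. The largest difference was for E2f2, with 91.2% in replicate 1 and 73.8% in replicate 2. It rests on few reads, since E2f2-202, which is not coding, held 2.07 and 6.32 counts. The coding E2f2-201 held 302 and 252 of the gene's 304 and 258 counts. How a count is divided among overlapping transcripts is an estimate made by the authors' quantification.

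**Figure D4:**
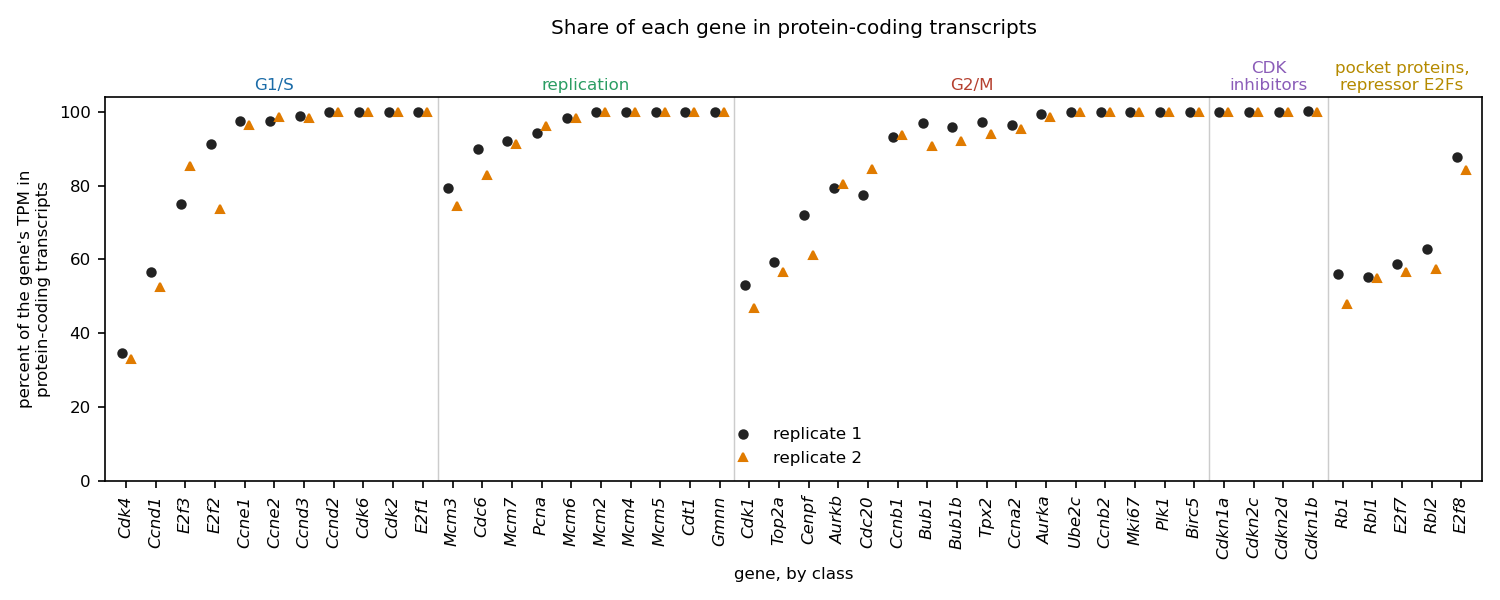
Percent of each gene's TPM in transcripts annotated as protein-coding, in replicate 1 (circles) and replicate 2 (triangles), by class. Cdk4 is lowest at 34.7% and 33.1%, Cdk1, Rb1, Rbl1 and Ccnd1 follow near 50%, and all 4 CDK inhibitors lie at or near 100%.

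Between the 2 pools, most of these genes were somewhat higher in replicate 1 relative to other genes, though not when scaled by spike-in RNA, a known amount added to each sample. The measure is the log2 ratio of replicate 1 over replicate 2 of counts scaled with TMM, and all 46 genes passed the filter of a mean of 1 TPM. With this scaling 41 of 46 genes had a ratio above 0, or 89.1%, against 53.1% of 13843 protein-coding genes, but scaling by spike-in totals lowers every ratio by about 0.45 and leaves 5 of 46 above 0, against 5.48% of protein-coding genes. The median ratio of the 46 genes was 0.25 (1.19-fold), against 0.015 for protein-coding genes, and under spike-in scaling it was -0.20 against -0.43. A shift common to all genes leaves the distance of 0.23 between these genes and the background as it was, while the sign of the median depended on the scaling.

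The differences were small for single genes. Past 1.5-fold were 2 of 46 genes (4.35%), both higher in replicate 1, against 3.15% of protein-coding genes on that side, so this share is near the background. They were E2f1, with 447 counts in replicate 1 and 284 in replicate 2 (log2 ratio 0.64), and Cdc6, with 398 and 259 counts (0.60). Under spike-in scaling they were at 0.19 and 0.15, and Cdc6 was at 0.48 in deposited TPM, short of 1.5-fold. None of the 46 genes was past 1.5-fold on the side of replicate 1 under spike-in scaling, against 1.05% of protein-coding genes. None was past 1.5-fold on the side of replicate 2 under TMM scaling, against 1.34% of protein-coding genes. Under spike-in scaling Cdkn1a, at -0.83, and Cdkn2d, at -0.70, were past it on that side, against 20.8% of protein-coding genes. By the second rule, that the deposited intervals of the 2 libraries do not overlap, 24 of 46 genes (52.2%) were higher in replicate 1, against 22.3% of protein-coding genes, and 2 of 46 (4.35%) were higher in replicate 2, against 9.07%. These intervals come from 1 library each and hold no spread between pools, and the direction of these calls rests on TPM without spike-in scaling.

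Direction by class was read under TMM scaling. All 11 G1/S genes and all 16 G2/M genes had ratios above 0, with medians of 0.25 and 0.23, as had 8 of 10 replication genes (median 0.25) and all 5 pocket protein and repressor genes (0.30), although under spike-in scaling these 4 medians lay between -0.22 and -0.15. The median of the 4 CDK inhibitors was -0.17, and -0.62 under spike-in scaling. It was nearer 0 with length-centred ratios, at -0.11, and with deposited TPM, at -0.10. Pcna and Gmnn were the 2 exceptions among the replication genes, at -0.040 and -0.058, both with overlapping intervals. With deposited TPM 9 of the 10 replication genes were higher in replicate 1, and all 10 were with length-centred ratios. Ccne1, Cenpf and Ccnb2 lay close to 0, at 0.0033, 0.010 and 0.028, with overlapping intervals. The G1/S and G2/M classes were thus not wholly on 1 side in every setting. With deposited TPM 10 of 11 G1/S genes and 15 of 16 G2/M genes were higher in replicate 1. With length-centred ratios 10 and 14 were. The share of protein-coding genes above 0 was 53.1% under TMM scaling and 61.1% with deposited TPM. Of the 4 CDK inhibitors, Cdkn1a (3260 and 4188 counts, log2 ratio -0.38) and Cdkn2d (3198 and 3776 counts, -0.25) lay on the side of replicate 2 with deposited intervals apart. Cdkn2c was at -0.078, and Cdkn1b at 0.14 with intervals apart, a ratio below the spike-in shift. Cdkn1c (p57), an inhibitor outside the 46 genes, ran the other way from Cdkn1a and Cdkn2d, at 0.49 with intervals apart and at 0.042 under spike-in scaling. The central 95% of protein-coding genes ran from -0.45 to 0.65, so each of the 46 ratios lay within it.

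**Figure D5:**
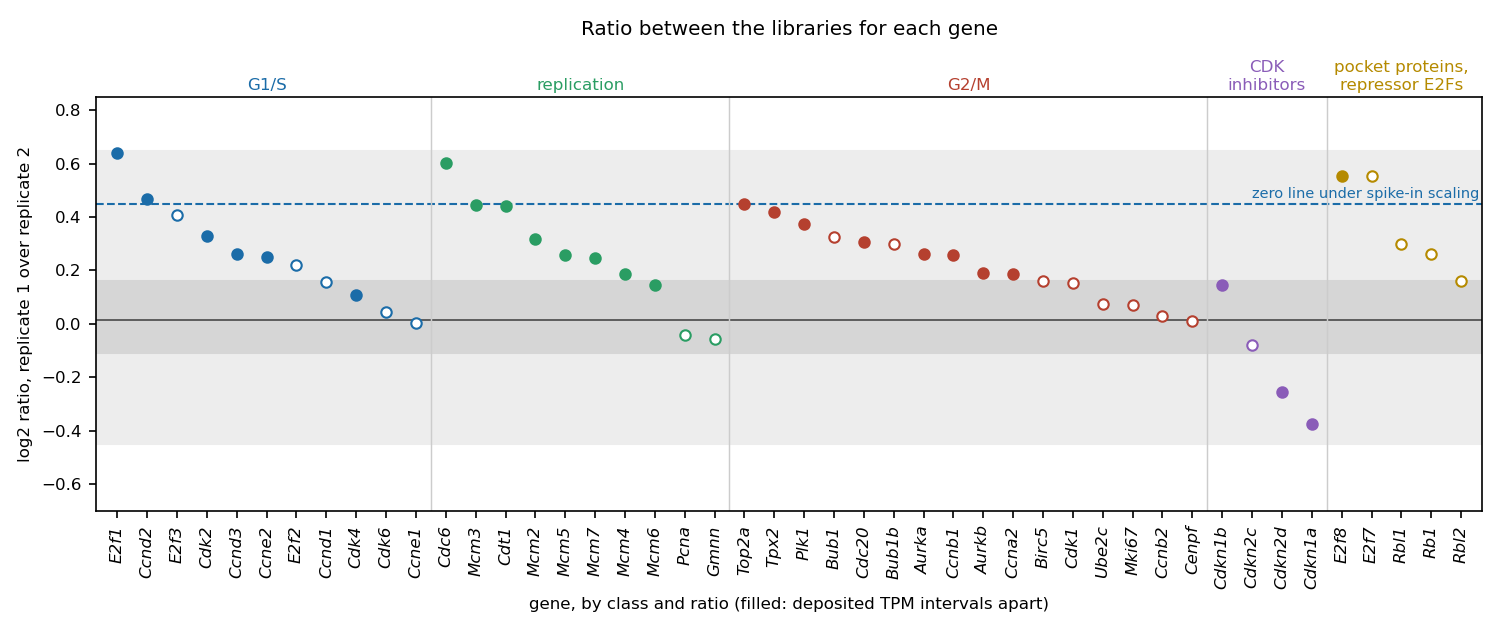
Log2 ratio of replicate 1 over replicate 2 (TMM scaling) for the 46 genes by class, filled where the deposited TPM intervals of the libraries do not overlap. Light and dark bands hold the central 95% and the central 50% of protein-coding genes, and the dashed line is where 0 falls under spike-in scaling. Most genes lie above 0 and below the dashed line, so their direction depends on the scaling, while Cdkn1a, Cdkn2d, Cdkn2c, Gmnn and Pcna lie below both.

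Several other measures also differed between the libraries, in both directions. Protein-coding genes with long transcripts also leaned to replicate 1, with a median ratio of -0.12 in the shortest of 10 length bins and 0.12 in the longest. When the median of each gene's own bin was subtracted, an alternative chosen after seeing the data, the median of the 46 genes was still 0.23 and 40 of 46 lay above 0. Markers of other cell types were set beside these ratios, with directions under TMM scaling. Of all protein-coding genes 53.1% were higher in replicate 1 under TMM scaling and 5.48% under spike-in scaling. Counts near these shares are thus no more than the background. All 6 skeletal muscle markers with a mean of 1 TPM were past 1.5-fold higher in replicate 1, also under spike-in scaling. Myog, Ckm, Myh3 and Tnnc2 passed this filter only through replicate 1, so their direction follows from the filter. Of the 7 muscle markers 2 reached 1 TPM in both libraries. Of 6 fibroblast and meningeal markers 5 passed the filter and all 5 were higher in replicate 1, or 4 under spike-in scaling, with sums of 754 and 413 TPM. All 8 red blood cell markers were higher in replicate 1, or 3 under spike-in scaling, with sums of 15717 and 12974 TPM. Of 5 endothelial markers 4 were higher in replicate 1 with intervals apart, and none under spike-in scaling, with sums of 169.5 and 152.2 TPM and a median ratio of 0.36. On the other side, 4 of 5 microglial markers and 4 of 6 neuronal markers were higher in replicate 2, with median ratios of -0.16 and -0.033, and under spike-in scaling all 5 and all 6 were. Among progenitor markers, 5 of 7 genes of granule cell progenitors were higher in replicate 1, with sums of 112.2 and 104.8 TPM, and 3 of 8 of radial glia, with sums of 2638 and 3132 TPM, and under spike-in scaling these counts were 1 and 0. No marker of these lists was at 0 in both libraries. The part of these cell types in the ratios of the 46 genes was not tested.

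Genes of the same pathway outside the 46 were read from lists chosen with earlier results of these data known. Of 94 such genes 92 reached 1 TPM in both libraries. Under TMM scaling 78 of the 93 with a mean of 1 TPM were higher in replicate 1, against 53.1% of protein-coding genes. Their median ratio was 0.16, which lies below the spike-in shift of 0.45. None of the 93 was past 1.5-fold higher in replicate 1, against 3.15% of protein-coding genes. On the side of replicate 2, 1 was past it, against 1.34%, so this share is near the background. The gene past it was Cdkn2b (p15), an Ink4 inhibitor, with 29 and 46 counts. Under spike-in scaling 7 of the 93 were higher in replicate 1, against 5.48% of protein-coding genes. On the side of replicate 2, 3 were past 1.5-fold, against 20.8% of protein-coding genes.

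Within these lists the mitotic kinase, spindle and kinetochore genes resembled the G2/M genes, with 24 of 26 higher in replicate 1 under TMM scaling and a median of 0.23. Bub3 was the most abundant at 130 ± 7.67 TPM, and Pttg1 (securin) was one of the 2 exceptions, with 42.8 and 47.1 TPM. The origin and fork genes had a median of 0.076, with 20 of 24 higher in replicate 1. They ran from Orc4 at 69.2 ± 6.43 TPM to Orc1, the origin subunit that E2F controls, at 1.54 ± 0.42 TPM, and Mcm10 had the highest ratio at 0.54. Of 7 genes of nucleotide supply 6 were higher in replicate 1, with a median of 0.16, and Dut was the most abundant at 61.8 ± 1.35 TPM. Genes of CDK phosphatases, Wee kinases and the checkpoint had a median of 0.26 with 9 of 10 higher in replicate 1, led by Trp53 at 44.4 ± 5.93 TPM. E2F, DP and MuvB genes had a median of 0.080 with 8 of 12 higher, from Rbbp4 at 199 ± 1.72 TPM to Mybl2 at 4.15 ± 1.17 TPM, and Foxm1, the activator of mitotic genes, had the highest ratio at 0.46. Genes of the anaphase-promoting and SCF ubiquitin ligases, many of which act outside the cycle too, had a median of 0.025, with 9 of 11 higher in replicate 1. All these medians turn sign under spike-in scaling.

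The remaining CDK inhibitors completed the picture of that class. Cdkn1c, an imprinted inhibitor of cells leaving the cycle, had 132 TPM in replicate 1 and 90.4 TPM in replicate 2, with intervals apart. It was thus at a level like that of Cdkn1a and Cdkn2d. Cdkn2a had 0 counts in both libraries, where a count of 0 allows up to 3, and Cdkn2b had 0.890 and 1.38 TPM.

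Some levels rest on sequence that is shared. In 18 of 46 genes annotated exons overlap those of another gene, among them Rbl2 with Aktip (693 bases) and Ccnd1 with LTO1 (1100 bases), both on the opposite strand. In 7 genes at least 5% of 31-base words also occur in transcripts of another gene, in each case a processed pseudogene. These were Ccnb1, Cdc20, Cdc6, Mcm4, Mcm7, Pcna and Plk1. Where such a copy has an entry in the gene tables its level was low, with Pcna-ps2 the highest at 0.920 and 2.26 TPM. The split of reads between a gene and its copies is uncertain.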

How the data were processed

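Values come from 2 gene tables and 2 transcript tables, 1 of each per library. The authors quantified each replicate separately on mm10 with GENCODE M4, per the deposited notes, while those notes, the labels and the headers name no quantification tool and no strand setting. Per the file headers, the tables hold expected counts, TPM, FPKM, interval bounds of both (treated as scores, level not given in the headers) and the percent of a gene taken by each transcript. The deposited TPM lay within its interval for 45 of the 46 genes in replicate 1 and for all 46 in replicate 2. Names, types and positions came from GENCODE M21 (GRCm38), which named 42462 of 43346 Ensembl identifiers, and promoters from RefSeq (GRCm38.p6).

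Expected counts were rounded, then scaled by TMM factors from edgeR 4.0.16 under R 4.3.3, spike-ins left out, with a prior count of 0.5. A gene counted as detected at 1 TPM in both libraries. Counts on Ensembl genes were 41543141 in replicate 1 and 41346921 in replicate 2, and intervals cover no spread between pools. The ratio step was tested on simulated data. Alternatives were detection minimum, FPKM, posterior mean TPM, coding transcripts, DESeq2 1.42.0 size factors, spike-in totals, TPM ratios, prior count, filters, 2-fold and single libraries. Joins used pandas 2.3.3 and Python 3.11.15.

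The members, lists, pairs and tests were chosen with earlier results of these data known. The values of all 46 genes were considered, and of other lists up to 4 genes were named, those with the highest or lowest mean TPM or ratio. En2, Tnnc2, Tspan31, Aktip, LTO1 and Pcna-ps2 were named after their values were seen.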

Additional observations from a re-analysis of the deposited data

How the results depend on the processing

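All 46 genes were detected at 0.5 TPM, at 1 FPKM, with protein-coding transcripts alone and in either library alone, and 37 at 5 TPM. The median level was 12.3 in FPKM, and by class 9.995 (G1/S), 14.7 (replication), 14.7 (G2/M), 38.7 (CDK inhibitors) and 3.005 (pocket proteins and repressor E2Fs), a change of unit that gives the same order. With protein-coding transcripts alone the median was 16.8 TPM over all genes, 19.5 TPM in G2/M and 2.89 TPM in the pocket protein class. Under spike-in totals the median log2 ratio became -0.20, with -0.20 in G1/S, -0.20 in replication, -0.22 in G2/M -0.15 in the pocket protein class and -0.62 in the CDK inhibitors, 5 genes were higher in replicate 1, 0 were past 1.5-fold on that side and 2 were on the side of replicate 2. This follows from the spike-in totals of 924614 and 670036 counts. The count past 1.5-fold higher in replicate 1, 2 in the main setting, was 4 with protein-coding transcripts, 1 with length-centred ratios, 1 at a mean of 5 TPM and 0 at 2-fold. DESeq2 size factors, a prior count of 5 and no filter left the median ratio at 0.26, 0.25 and 0.25, and 41 genes higher in replicate 1. The number of called pairs was 30 with FPKM intervals too, and 5 of 38 ratios moved by over 1.5 times with protein-coding transcripts, without a change of sign among called pairs. No paired analysis was possible because there is only 1 group. Depth is lowest for Cdkn2c, with 154 and 161 counts, and E2f8, with 260 and 175 counts. E2f1 was at 0.19 and Cdc6 at 0.15 under spike-in totals, and Cdc6 was at 0.48 with TPM and 0.57 with length-centred ratios, an alternative chosen after seeing the data, all short of 1.5-fold. E2f1 stayed past it in these last 2 settings, at 0.69 and 0.61. Without replicate 1 or 2, 32 to 33 pairs were called, and no ratio between libraries can be formed.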

Other observations

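Genes of primary microcephaly, which encode centrosome and spindle proteins of dividing neural progenitors, were all detected but low. The 10 genes had a median of 3.73 TPM, from Stil at 1.81 ± 0.24 TPM to Mcph1 at 9.28 ± 0.52 TPM. Under TMM scaling 7 of 10 were higher in replicate 1, with a median log2 ratio of 0.14, and the highest ratio was that of Aspm, with 2.49 TPM in replicate 1 and 1.89 TPM in replicate 2. That median lies below the spike-in shift of 0.45.

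Among the progenitor and glial markers, single genes went both ways. Atoh1, which marks rhombic lip derivatives, stood at 12.3 TPM in replicate 1 and 7.64 TPM in replicate 2, and Olig2 had 9.92 and 5.30 TPM. Fabp7, the most abundant radial glial marker, had 1841 and 2399 TPM, and Olig1 had 129 and 159 TPM. Rbfox3, the least abundant neuronal marker, had 56.9 and 57.5 TPM.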
